A study of Mus musculus with 10 samples.

Results

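The genes that write, copy, erase and protect DNA methylation were followed in RNA-seq libraries of mouse embryonic stem cells (mESCs) that lack a subunit of MiDAC, a histone deacetylase complex. The 10 genes were chosen by symbol and for their function, with earlier results of these data known. All 10 were found among the 34591 genes of the FPKM table (fragments scaled for exon length and library size). They comprise the DNA methyltransferase genes *Dnmt1*, *Dnmt3a*, *Dnmt3b* and *Dnmt3l*, the methyltransferase cofactor *Uhrf1*, the dioxygenase genes *Tet1*, *Tet2* and *Tet3*, and the imprint protectors *Zfp57* and *Trim28*. The cells were WT mESCs of the male C57/BL6 line Bruce-4 and 4 KO clones derived from it with CRISPR/Cas9, each sequenced as 2 libraries, which gave 10 libraries. *Dnttip1* is disrupted in D2A7 and D1E6, and *Elmsan1* in E2E8 and E2G7. DNTTIP1 and ELMSAN1 are both subunits of MiDAC. All lines were grown in 2iL medium, which holds cells in the naive state with LIF, the GSK3β inhibitor CHIR 99021 (3 µM) and the MEK inhibitor PD 0325901 (1 µM). Each clone grew from a single sorted cell, so a knockout is represented by 2 clones, and a difference between a clone and WT cannot be told apart from a difference that the clone carried for another reason. The study calls the libraries of a line biological replicates. How their cultures were kept apart, and whether the WT cells were cloned, is not given in the sources used here, so p-values measure the spread between these libraries.

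Methylation of cytosine in CpG dinucleotides is copied to the new DNA strand by DNMT1, which UHRF1 brings to hemimethylated sites. DNMT3A and DNMT3B place new methylation, and DNMT3L, which has no catalytic activity, stimulates them. TET enzymes oxidize methylated cytosine with oxygen and 2-oxoglutarate and so begin its removal, while ZFP57 binds methylated imprinting control regions and recruits TRIM28 (KAP1) to keep them methylated through the wave of demethylation in the early embryo. Naive mESCs in 2iL are known for low global DNA methylation and low DNMT3 levels, and mESCs express *Tet1* and *Tet2*, whereas *Tet3* is the form of oocytes and differentiated cells. DNA methylation itself was not measured in these libraries, and all values are RNA levels. In bulk libraries, fewer cells that express a gene and less of its RNA per cell cannot be told apart.

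Promoter sequences are shown for *Dnmt3b*, *Dnmt3l*, *Tet2* and *Zfp57*, the members whose RNA levels differed most between lines. They are the 250 bases upstream of the most upstream start site that RefSeq lists for each gene, credited to RefSeq (table of build GRCm38.p6), located by an exact and single match in NCBIM37, the build of the files, and given with NCBIM37 coordinates. Each runs 5′ to 3′ on the strand of the gene, and capitals mark the CpG dinucleotides, the sites at which these enzymes act.
*Dnmt3b* (chr2:153474935-153475184, + strand): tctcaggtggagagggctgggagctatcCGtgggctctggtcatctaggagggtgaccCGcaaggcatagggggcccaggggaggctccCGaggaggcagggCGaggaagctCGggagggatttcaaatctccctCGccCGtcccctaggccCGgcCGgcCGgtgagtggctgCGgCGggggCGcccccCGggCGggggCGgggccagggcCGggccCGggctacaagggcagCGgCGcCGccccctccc
*Dnmt3l* (chr10:77504782-77505031, + strand): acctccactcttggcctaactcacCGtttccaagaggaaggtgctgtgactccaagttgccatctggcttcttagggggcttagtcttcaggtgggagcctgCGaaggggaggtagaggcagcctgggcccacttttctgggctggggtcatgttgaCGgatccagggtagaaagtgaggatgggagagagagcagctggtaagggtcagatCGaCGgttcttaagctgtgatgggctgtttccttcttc
*Tet2* (chr3:133207355-133207604, - strand): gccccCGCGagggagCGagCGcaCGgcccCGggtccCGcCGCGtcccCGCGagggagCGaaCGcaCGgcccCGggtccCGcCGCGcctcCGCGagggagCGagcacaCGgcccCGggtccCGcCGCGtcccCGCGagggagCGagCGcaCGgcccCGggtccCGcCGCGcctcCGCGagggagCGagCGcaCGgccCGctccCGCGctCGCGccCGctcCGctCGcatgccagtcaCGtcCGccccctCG
*Zfp57* (chr17:37137858-37138107, + strand): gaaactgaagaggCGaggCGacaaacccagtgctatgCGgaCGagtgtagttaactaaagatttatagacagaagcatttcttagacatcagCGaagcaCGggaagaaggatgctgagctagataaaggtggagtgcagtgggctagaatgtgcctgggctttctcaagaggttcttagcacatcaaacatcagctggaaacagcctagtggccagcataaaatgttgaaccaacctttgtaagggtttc
The *Tet2* window held 51 CpG dinucleotides, more than 99.9% of the 32851 promoter windows of the same length, and the *Dnmt3b* window held 21, more than 83.7% of them. The windows of *Dnmt3l* and *Zfp57* held 5 and 6, near the median of 6 over all promoters. The remaining start sites of *Dnmt3l* had 4 and 3 CpG dinucleotides and those of *Zfp57* had 7 and 3. The hexamer TGCCGC, the letters that ZFP57 is known to bind when methylated, was searched on both strands and is in 8.68% of all promoters. It was absent from these 4 windows, and among all 19 start sites of the 10 genes it was found in the windows of *Dnmt3a*, *Tet3* and *Trim28*. The genes with the widest range between lines thus included both CpG-rich promoters and promoters near the median.

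The depth, read from the steps between low FPKM values, was 31098266 and 37921213 fragments in the WT libraries and 48262663 to 86463818 in the KO libraries. *Dnttip1* was at 8.15 and 8.43 FPKM in WT mESCs and at 2.59 to 4.57 FPKM in its 4 KO libraries, with a log2 fold change of -1.26 (SE 0.285, adjusted p = 0.0471). *Elmsan1*, listed as *C130039O16Rik*, was at 5.39 and 5.53 FPKM in WT and at 4.62 to 5.18 FPKM in its KO libraries (log2 fold change -0.19, adjusted p = 0.188), so its RNA level does not check the labels of those clones. The mESC markers were present in every library, 10 of 10 averaging at least 1 FPKM, with a summed level from 1259 to 1704 FPKM, while fibroblast (feeder) markers summed to 0.317 to 1.20 FPKM. Markers of primitive endoderm summed to 0.705 to 1.58 FPKM and those of 2-cell-like cells to at most 0.253 FPKM. Trophoblast markers averaged a summed 15.6 FPKM in WT, 39.8 in D2A7, 22.1 in D1E6, 11.9 in E2E8 and 19.8 in E2G7. This sum was carried by the keratin genes *Krt8* and *Krt18*, while the trophoblast regulators *Cdx2*, *Elf5*, *Hand1* and *Gata3* averaged at most 0.161 FPKM in any line. Neural markers averaged a summed 60.5 FPKM in WT, 85.3 in D2A7, 95.2 in D1E6, 51.7 in E2E8 and 96.5 in E2G7, carried by *Tubb3* and *Nes*, with *Pax6* near 0. Both sums were below WT in E2E8 and above WT in the other 3 clones. So were the mean FPKM of *Dnmt3b*, *Dnmt3l*, *Uhrf1*, *Tet1* and *Trim28*, with *Dnmt3b* and *Trim28* close to WT in D1E6. The part of these markers in the levels of those genes was not tested. Over 11270 genes (each at 1 FPKM or more in all libraries), the *Dnttip1* KO clone D1E6 and the *Elmsan1* KO clone E2G7 resembled each other (Pearson r of log2 values across genes 0.996 to 0.997) as closely as some libraries of a line resembled each other (0.996 to 0.998). Each was less like the other clone of its own knockout, with r of 0.980 to 0.982 for D1E6 and D2A7 and of 0.981 to 0.983 for E2G7 and E2E8. For this reason each clone is described on its own before the knockouts are pooled.

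Across all lines, the RNAs of the maintenance machinery and of *Trim28* had high FPKM and those of *Dnmt3a* and *Tet3* had low FPKM. The exon length behind these values is joined over all annotated transcripts of a gene, 16642 bases for *Dnmt3a* and 5106 for *Dnmt3b*. A gene whose expressed transcript is shorter than that reads low, so levels compare only roughly between genes. *Trim28* had the highest mean over the 10 libraries at 409 ± 44.3 FPKM (SD, n = 10), followed by *Uhrf1* at 172 ± 33.1, *Dnmt1* at 106 ± 9.58 and *Zfp57* at 59.2 ± 14.8. *Tet1* averaged 28.7 ± 5.04 FPKM, *Dnmt3l* 13.9 ± 9.61, *Tet2* 13.6 ± 5.62 and *Dnmt3b* 10.8 ± 4.16. *Dnmt3a* averaged 1.25 ± 0.175 FPKM and *Tet3* 0.205 ± 0.0471 FPKM. The SD of *Dnmt3l* was the largest relative to its mean. On the log2 scale the means of the 5 lines spanned 3.22 for *Dnmt3l*, 2.01 for *Dnmt3b* and 1.91 for *Tet2*, against a median span of 0.40 over 11270 genes. The spans of these 3 genes exceeded those of 99.96%, 99.4% and 99.2% of the genes, respectively. *Zfp57* (0.77), *Uhrf1* (0.73) and *Tet1* (0.71) had intermediate spans, *Tet3* spanned 0.55 and *Dnmt3a* 0.47, and *Trim28* (0.44) and *Dnmt1* (0.34) were near the median of all genes.

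**Figure D1:**
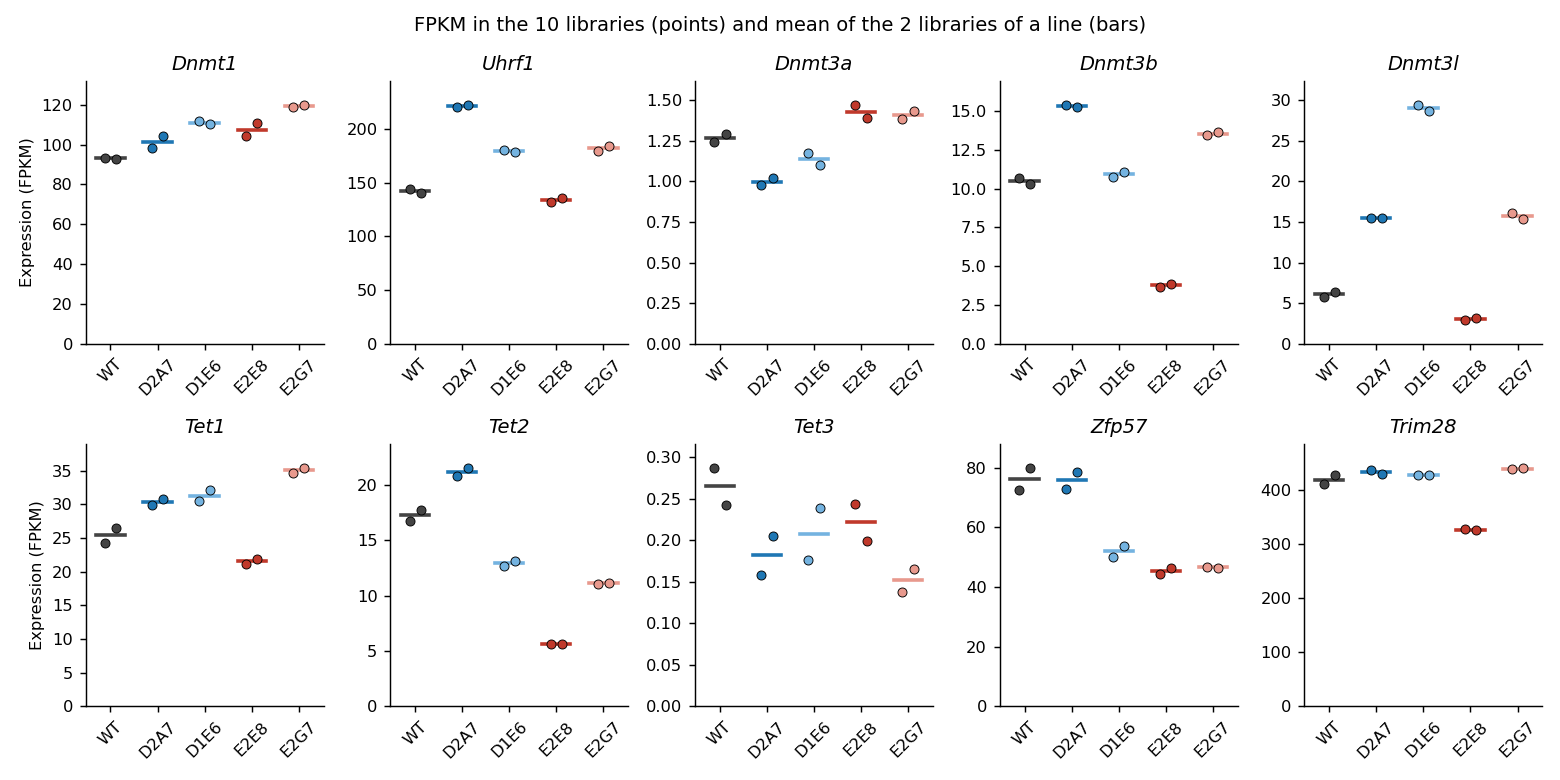
FPKM (vertical axes, linear and starting at 0) of the 10 genes in WT mESCs and the 4 KO clones (D2A7 and D1E6 lack *Dnttip1*, E2E8 and E2G7 lack *Elmsan1*). Points are the 2 libraries of a line and bars are their means. The libraries of a line lie close together, and *Dnmt3b*, *Dnmt3l* and *Tet2* differ most between lines, with E2E8 lowest in all 3.

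*Dnmt1* (chr9:20711650-20757317), which copies methylation after replication, had 93.4 and 92.8 FPKM in WT mESCs. It had 98.1 and 104 FPKM in D2A7, 112 and 110 in D1E6, 104 and 111 in E2E8, and 119 and 120 in E2G7. All 8 KO libraries were above both WT libraries, but the increases were small. They were 0.10 (SE 0.0423, adjusted p = 0.0875) in D2A7, 0.22 (adjusted p = 0.00423) in D1E6, 0.18 (adjusted p = 0.00861) in E2E8 and 0.34 (adjusted p = 0.000533) in E2G7 on the log2 scale. None reached 1.5-fold, the size that a call requires here together with an unadjusted p under 0.01. Log2 fold changes and p-values are from limma on log2(FPKM + 0.1), with adjustment by Benjamini-Hochberg over all genes tested.

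*Uhrf1* (chr17:56442744-56462909), whose protein brings DNMT1 to replicated DNA, varied more than *Dnmt1*. It had 144 and 141 FPKM in WT, 220 and 223 in D2A7, 181 and 178 in D1E6, 132 and 136 in E2E8, and 180 and 184 in E2G7. D2A7 stood highest, D1E6 and E2G7 overlapped in the middle, and E2E8 lay just below WT. The increase in D2A7 (log2 fold change 0.62, SE 0.0367, adjusted p = 1.0e-05) was called, and was 0.57 and just under 1.5-fold without WT replicate 2. *Uhrf1* was also higher in D1E6 (0.30, adjusted p = 0.000436) and E2G7 (0.34, adjusted p = 0.000272) and lower in E2E8 (-0.11, adjusted p = 0.0309), all under 1.5-fold. The FPKM of *Uhrf1* divided by that of *Dnmt1* in the same library averaged 1.53 in WT, 2.19 in D2A7, 1.62 in D1E6, 1.25 in E2E8 and 1.53 in E2G7. The pair of RNAs thus kept the WT proportion in E2G7, where both were higher.

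Of the de novo methyltransferase genes, *Dnmt3b* and *Dnmt3l* changed by large factors in single clones, whereas *Dnmt3a* did not reach 1.5-fold in any. *Dnmt3a* (chr12:3806007-3914443) had 1.24 and 1.29 FPKM in WT, 0.978 and 1.02 in D2A7, 1.18 and 1.098 in D1E6, 1.47 and 1.39 in E2E8, and 1.38 and 1.43 in E2G7. Both *Dnttip1* KO clones lay below WT and both *Elmsan1* KO clones above it. The decrease in D2A7 had a log2 fold change of -0.34 (SE 0.0768, adjusted p = 0.00762), and the adjusted p was 0.100 in D1E6, 0.174 in E2E8 and 0.233 in E2G7. Between the knockouts the difference was -0.38 (SE 0.107, unadjusted p = 0.00612, adjusted p = 0.296). The low FPKM of *Dnmt3a* still rests on 643 to 2062 fragments per library, because its exons, joined over 18 annotated transcripts, span 16642 bases.

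*Dnmt3b* (chr2:153475186-153513466) encodes the other active de novo enzyme, whose RNA is known to rise as naive cells move towards the primed state. WT mESCs had 10.7 and 10.3 FPKM, D1E6 10.8 and 11.1, D2A7 15.4 and 15.3, E2G7 13.5 and 13.6, and E2E8 3.67 and 3.86. E2E8 was thus far below all other lines. Its log2 fold change from WT was -1.49 (SE 0.0432, adjusted p = 6.5e-07), a level 2.80-fold lower. *Dnmt3b* was higher than WT in D2A7 (0.52, adjusted p = 4.9e-05) and E2G7 (0.35, adjusted p = 0.000533), both under 1.5-fold, and was at 0.03 (adjusted p = 0.667) in D1E6. Between the *Elmsan1* KO clones, E2E8 was lower than E2G7 by a log2 difference of -1.83 (SE 0.0433, adjusted p = 6.0e-07), or 3.56-fold.

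*Dnmt3l* (chr10:77504692-77526367), the catalytically inactive stimulator of DNMT3A and DNMT3B, was the most variable member. It had 5.74 and 6.44 FPKM in WT, 15.5 in both libraries of D2A7, 29.4 and 28.7 in D1E6, 2.91 and 3.14 in E2E8, and 16.1 and 15.4 in E2G7. D1E6 was highest, D2A7 and E2G7 overlapped, and E2E8 was lowest and below WT. From WT, the log2 fold change was 2.21 (SE 0.0498, adjusted p = 6.4e-07) in D1E6, 1.32 (adjusted p = 1.6e-06) in D2A7 and 1.34 (adjusted p = 2.9e-06) in E2G7. These are increases of 4.62-fold, 2.49-fold and 2.53-fold. In E2E8 it was -1.01 (SE 0.0497, adjusted p = 4.1e-06), a level 2.02-fold lower than WT. The clones of each knockout therefore differed, D1E6 exceeding D2A7 (D2A7 against D1E6 -0.89, SE 0.0497, adjusted p = 8.5e-06) and E2G7 exceeding E2E8 (E2E8 against E2G7 -2.36, SE 0.0498, adjusted p = 3.6e-07). *Aire*, which overlaps *Dnmt3l* on the opposite strand, was at no more than 0.427 FPKM in any library.

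The proportion of *Dnmt3l* to *Dnmt3b* differed between all lines. The FPKM ratio within a library averaged 0.580 in WT (0.537 and 0.623), 1.01 in D2A7, 2.66 in D1E6 (2.59 and 2.73), 0.803 in E2E8 and 1.16 in E2G7 (1.13 and 1.19). In all 8 KO libraries the ratio was above both WT libraries, in E2E8 with both RNAs reduced and in D1E6 with *Dnmt3b* close to WT. Because the same 2 WT libraries enter each of these comparisons, the 4 clones are not independent of each other in this respect. *Otx2*, a gene of the primed state and the only marker of that list with a mean of at least 1 FPKM, averaged 10.98 FPKM in WT, 10.97 in D2A7, 2.93 in D1E6, 0.757 in E2E8 and 2.97 in E2G7. The 6 primed markers summed to 1.56 to 12.3 FPKM per library, nearly all of it *Otx2*, with *Cer1* at 0 and *Fgf5* near 0 throughout. *Lef1* averaged 0.336 FPKM in WT, 0.185 in D2A7, 0.1199 in D1E6, 0.268 in E2E8 and 0.166 in E2G7. *T* averaged 0.581 FPKM in WT, 0.223 in D2A7, 0.195 in D1E6, 0.320 in E2E8 and 0.205 in E2G7, and *Pou3f1* averaged 0.225 to 0.279 FPKM in all lines. The list did not move together, as *Lef1* and *T* were highest among the clones in E2E8, where *Otx2* was lowest, and were below WT in D2A7, where *Otx2* was at the WT level. The part of the primed state in the levels of *Dnmt3b* and *Dnmt3l* was not tested.

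**Figure D2:**
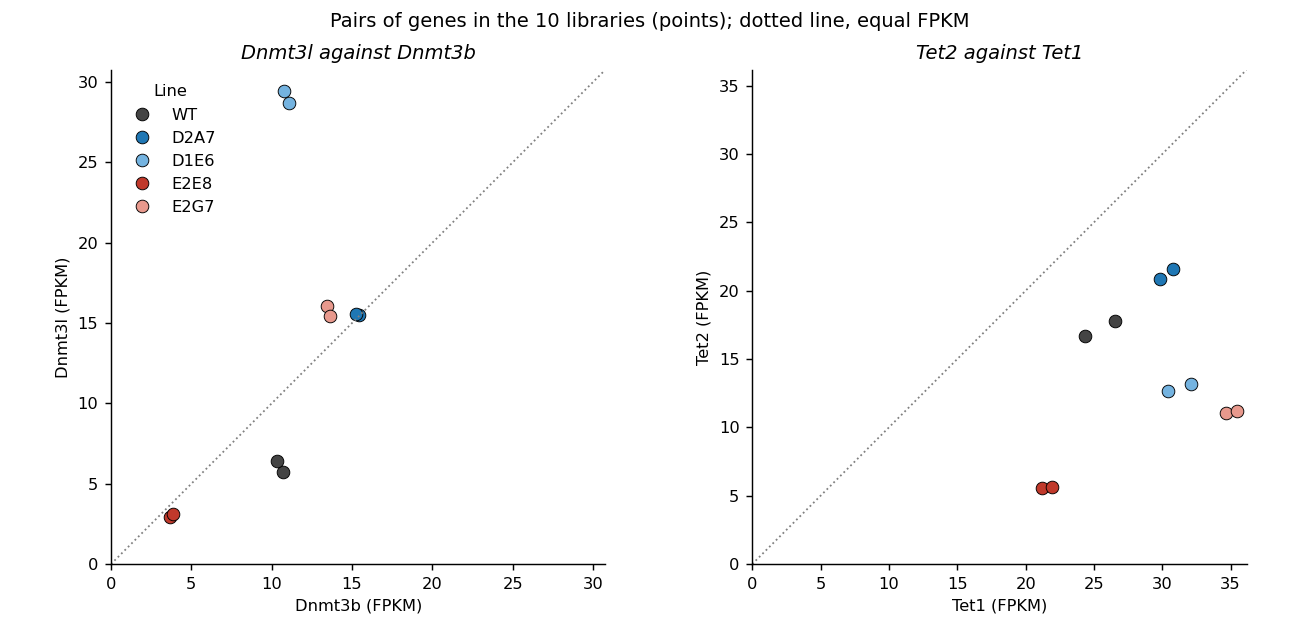
FPKM of *Dnmt3l* against *Dnmt3b* (left) and of *Tet2* against *Tet1* (right) in the 10 libraries, coloured by line, on linear axes from 0, with a dotted line of equal FPKM. The *Dnmt3l* to *Dnmt3b* ratio ranges from a mean of 0.580 in WT to 2.66 in D1E6, and the *Tet2* to *Tet1* ratio from 0.260 in E2E8 to 0.699 in D2A7.

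Among the TET genes, *Tet2* was lower than WT in 3 of the 4 clones, *Tet1* moved less, and *Tet3* was scarce. *Tet1* (chr10:62267318-62361866), the main TET gene of mESCs, had 24.3 and 26.5 FPKM in WT, 29.8 and 30.8 in D2A7, 30.4 and 32.1 in D1E6, 21.2 and 21.9 in E2E8, and 34.7 and 35.4 in E2G7. E2E8 alone was below WT (log2 fold change -0.26, SE 0.0356, adjusted p = 0.000519). The increases were 0.23 (adjusted p = 0.00108) in D2A7, 0.27 (adjusted p = 0.000702) in D1E6 and 0.45 (adjusted p = 5.9e-05) in E2G7, none of them 1.5-fold. E2E8 and E2G7 were 1.64-fold apart (log2 difference -0.71, SE 0.0357, adjusted p = 1.0e-05), which was called.

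*Tet2* (chr3:133126643-133207354), the other abundant TET gene of mESCs, had 16.7 and 17.8 FPKM in WT, 20.8 and 21.6 in D2A7, 12.7 and 13.2 in D1E6, 5.60 and 5.61 in E2E8, and 11.1 and 11.2 in E2G7. The lines fell in the order D2A7, WT, D1E6, E2G7 and E2E8, with no overlap between any of them. The log2 fold change from WT was -1.63 (SE 0.0303, adjusted p = 1.0e-07) in E2E8, a level 3.10-fold lower, and -0.64 (SE 0.0303, adjusted p = 6.7e-06) in E2G7, 1.56-fold lower (-0.58 and under 1.5-fold with chromosomes centred on WT). In D1E6 it was -0.45 (adjusted p = 2.6e-05), short of 1.5-fold, while D2A7 had more *Tet2* than WT (0.28, adjusted p = 0.000201). The *Dnttip1* KO clones differed in *Tet2* by 1.65-fold (D2A7 against D1E6 0.72, SE 0.0303, adjusted p = 3.0e-06) and the *Elmsan1* KO clones by 1.98-fold (E2E8 against E2G7 -0.99, SE 0.0304, adjusted p = 1.7e-06). The *Tet2* to *Tet1* ratio averaged 0.679 in WT, 0.699 in D2A7, 0.413 in D1E6, 0.260 in E2E8 and 0.317 in E2G7. The ratio in D1E6, E2E8 and E2G7 was below that in both WT libraries, in D1E6 and E2G7 with *Tet1* higher and *Tet2* lower.

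*Tet3* (chr6:83312367-83391672) had 0.287 and 0.243 FPKM in WT and 0.138 to 0.244 FPKM in the KO libraries, from 94 to 205 fragments per library. Its line means were all below WT, with log2 fold changes of -0.39 in D2A7, -0.28 in D1E6, -0.21 in E2E8 and -0.55 in E2G7. Only the last had an adjusted p under 0.05 (SE 0.182, adjusted p = 0.0437). Genes of chromosome 6, on which *Tet3* lies, were higher than WT in D1E6, E2E8 and E2G7, with median log2 fold changes of 0.42, 0.38 and 0.29 over 504 genes, and at -0.08 in D2A7. With the genes of each chromosome centred on WT, the *Tet3* changes were -0.70 (adjusted p = 0.0206) in D1E6 and -0.84 (adjusted p = 0.00982) in E2G7, and both were called.

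*Zfp57* was lower in 3 clones, whereas its partner *Trim28* was lower in E2E8 alone. *Zfp57* (chr17:37138108-37147580) encodes the zinc finger protein that reads methylated imprinting control regions. It had 72.6 and 80.0 FPKM in WT, 72.8 and 78.7 in D2A7, 50.2 and 53.9 in D1E6, 44.5 and 46.4 in E2E8, and 46.9 and 46.5 in E2G7. D2A7 overlapped WT, and the other 3 clones lay below every WT and D2A7 library. The log2 fold change from WT was -0.77 (SE 0.0482, adjusted p = 1.2e-05) in E2E8 and -0.72 (SE 0.0483, adjusted p = 2.8e-05) in E2G7, or 1.71-fold and 1.65-fold lower. It was -0.58 (SE 0.0483, adjusted p = 6.6e-05) in D1E6, at the edge of 1.5-fold, and -0.03 (adjusted p = 0.614) in D2A7. E2E8 and E2G7 differed by -0.05 (SE 0.0483, adjusted p = 0.434, 95% interval from -0.16 to 0.06).

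*Trim28* (chr7:13609501-13616384), the corepressor that ZFP57 and many other zinc finger proteins recruit, had 411 and 428 FPKM in WT, 438 and 430 in D2A7, 427 in both libraries of D1E6, 329 and 325 in E2E8, and 438 and 441 in E2G7. The decrease in E2E8 was -0.39 (SE 0.0304, adjusted p = 3.6e-05), under 1.5-fold. The changes in D2A7, D1E6 and E2G7 were 0.03, -0.0038 and 0.05, with adjusted p of 0.475, 0.931 and 0.218. The *Trim28* to *Zfp57* ratio averaged 5.50 in WT, 5.74 in D2A7, 8.22 in D1E6, 7.20 in E2E8 and 9.42 in E2G7.

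**Figure D3:**
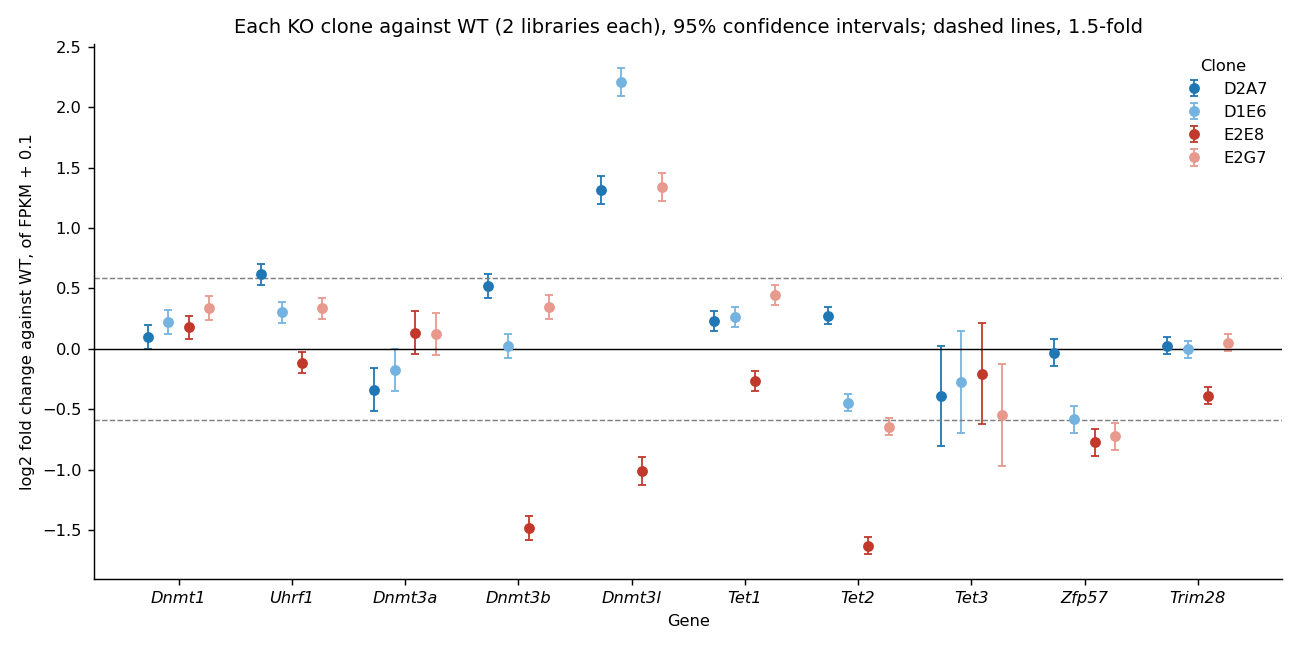
Log2 fold change of FPKM + 0.1 against WT (vertical axis) for the 10 genes in each KO clone, with 95% confidence intervals from limma and dashed lines at 1.5-fold. *Dnmt3l* lies between 1.32 and 2.21 in D2A7, D1E6 and E2G7 and at -1.01 in E2E8, *Zfp57* lies between -0.77 and -0.58 in all clones but D2A7 (-0.03), and *Dnmt1* is above 0 in all 4.

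Counted over the 10 genes, E2E8 was the clone with the most members called. In E2E8, 4 of 10 were lower than WT and 0 were higher, in a comparison in which 17% of 16895 genes were called and 6.24% were called lower. In E2G7, 3 of 10 were called (1 higher and 2 lower), where 10.7% of all genes were called. In D2A7, 2 of 10 were called, both higher, where 17.1% of all genes were called, and in D1E6 1 of 10 where 11.7% were called. The counts in D2A7 and D1E6 are near those over all genes. Between the *Elmsan1* KO clones, 4 of 10 members were called, all lower in E2E8, where 13.2% of genes were called and 3.12% were called lower. Between the *Dnttip1* KO clones it was 2 of 10, where 13.8% of genes were called. The median log2 fold change of the 10 genes was -0.33 in E2E8 against 0.03 over all genes tested, 0.23 in E2G7 against -0.02, 0.17 in D2A7 against 0.04, and 0.01 in D1E6 against -0.0035. The *Elmsan1* KO clones lay on opposite sides of WT, each with an adjusted p under 0.05, for 4 genes, *Dnmt3b*, *Dnmt3l*, *Uhrf1* and *Tet1*, with E2E8 below and E2G7 above. Of the 16396 genes tested in both clones, 352 (2.15%) met both conditions, a pattern picked out after the values were seen.

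Pooled tests compared the mean of each knockout with WT and called few of these genes. They count the gap between clones as spread. A change called in both clones, as *Tet2* was in E2E8 and E2G7, can therefore fail them. In *Dnttip1* KO versus WT mESCs, 1 of 10 members was called, *Dnmt3l*, where 6.51% of all genes were called, so the share of members was near that of all genes. *Dnmt3l* averaged 22.3 ± 7.82 FPKM in *Dnttip1* KO (SD, n = 4) and 6.09 ± 0.4996 in WT (SD, n = 2), 3.39-fold higher (log2 fold change 1.76, SE 0.315, adjusted p = 0.0265). All 4 KO libraries were above both WT libraries. When libraries of a line were allowed to correlate, with an estimated correlation of 0.704, the adjusted p was 0.0870 and the unadjusted p was 0.000895. Without WT replicate 1 the change was 1.71 and was no longer called (unadjusted p = 0.0120), nor was it with all 10 libraries in the fit (unadjusted p = 0.0317). *Tet1* was higher by 0.25 (SE 0.0479, adjusted p = 0.0313), under 1.5-fold, and this was lost with the correlation within lines (adjusted p = 0.311). *Uhrf1* was at 0.46 (SE 0.119, adjusted p = 0.0659). The 2 *Dnttip1* KO clones and WT did not overlap in 7 of 10 members, where 40.4% of all genes did not overlap.

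In *Elmsan1* KO versus WT mESCs, 1 of 10 members was called, *Zfp57*, where 6.43% of all genes were called, again a similar share. It averaged 46.1 ± 1.08 FPKM in *Elmsan1* KO (SD, n = 4) and 76.3 ± 5.21 in WT (SD, n = 2), 1.68-fold lower (log2 fold change -0.75, SE 0.0489, adjusted p = 0.00173). The adjusted p was 0.0397 with an estimated correlation of 0.768 within lines. *Tet2* averaged 8.37 ± 3.19 FPKM against 17.2 ± 0.730 in WT, and its log2 fold change of -1.14 (SE 0.342, unadjusted p = 0.0146, adjusted p = 0.0876) did not pass, although all 4 libraries were below both WT libraries. Without either E2G7 library *Tet2* passed, at -1.30 in both cases. The intervals of *Dnmt3b* (-2.09 to 0.96) and *Dnmt3l* (-1.80 to 2.12) were wide, as E2E8 and E2G7 lay on opposite sides of WT. The 2 groups did not overlap in 4 of 10 members, where 41.3% of all genes did not overlap. The *Dnttip1* KO and *Elmsan1* KO comparisons share both WT libraries, so their values are given side by side and not as independent results. For *Zfp57* they were -0.31 (adjusted p = 0.374) and -0.75, for *Tet2* -0.08 (adjusted p = 0.863) and -1.14, and for *Dnmt3l* 1.76 and 0.16 (adjusted p = 0.917).

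The knockouts were also compared with each other directly. *Tet2* was the 1 member of 10 called, where 1.52% of all genes were called. It averaged 17.0 ± 4.801 FPKM in *Dnttip1* KO and 8.37 ± 3.19 in *Elmsan1* KO (SD, n = 4 each), a log2 difference of 1.05 (SE 0.297, unadjusted p = 0.00657, adjusted p = 0.296). The adjusted p was 1.00 with an estimated correlation of 0.856 within lines, and the call was lost without either library of D2A7 (0.94 and 0.92) or of E2E8 (0.89 each). *Dnmt3l* differed by 1.60 (SE 0.606, adjusted p = 0.297) and *Zfp57* by 0.44 (SE 0.140, adjusted p = 0.296), neither of which was called. The groups did not overlap in 3 of 10 members, where 9.58% of all genes did not overlap. A single value compared between 4 and 2 libraries by an exact permutation test could not go below p = 0.0667, so no such test was used for the comparisons with WT.

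**Figure D4:**
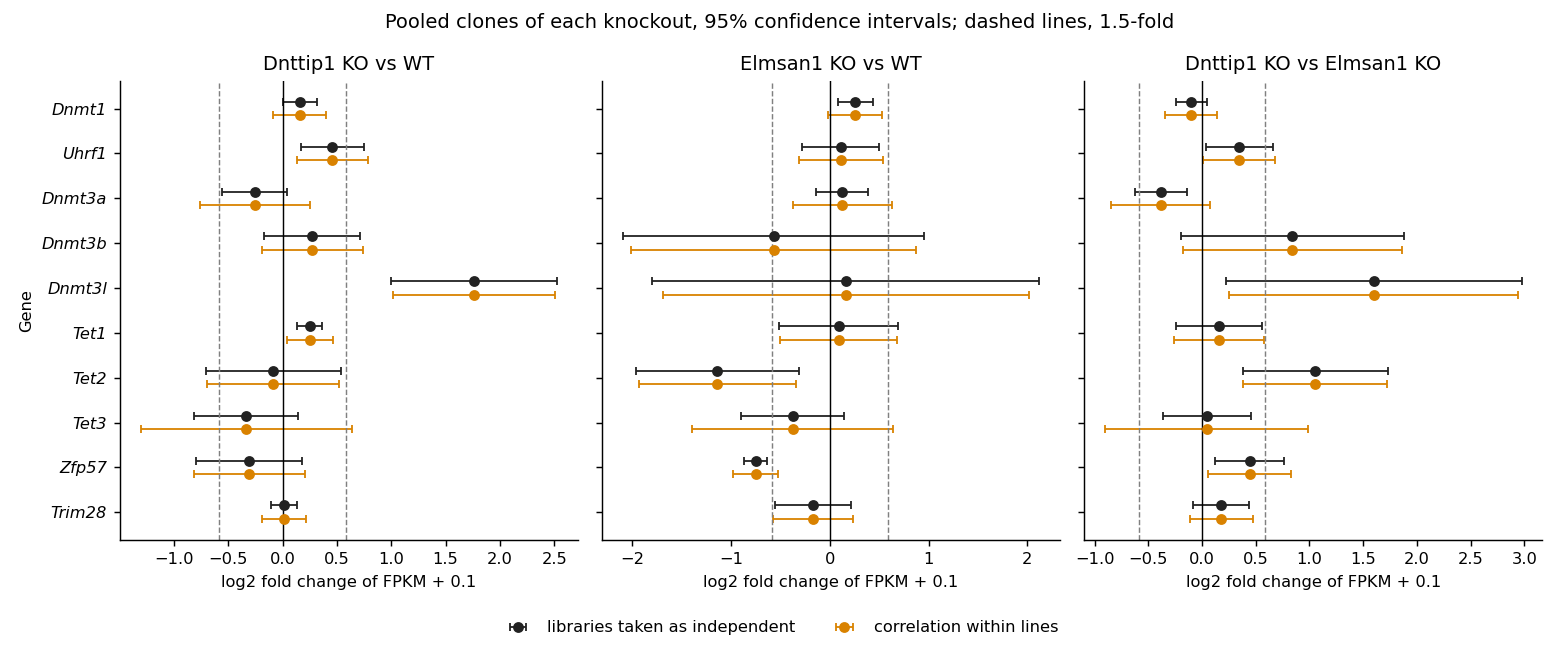
Log2 fold change (horizontal axes) of the 10 genes for *Dnttip1* KO versus WT, *Elmsan1* KO versus WT and *Dnttip1* KO versus *Elmsan1* KO, with 95% confidence intervals, from the fit that takes libraries as independent (black) and the fit with a correlation within lines (orange). Dashed lines mark 1.5-fold. *Dnmt3l* at 1.76 in *Dnttip1* KO, *Zfp57* at -0.75 in *Elmsan1* KO and *Tet2* at 1.05 between the knockouts are the called members, and the intervals of *Dnmt3b* and *Dnmt3l* in *Elmsan1* KO span 0.

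Beyond these 10 genes, 7 further lists of genes around DNA methylation were examined in the same way. Their pooled values are from the fit that takes libraries as independent. With the correlation within lines, genes at an adjusted p under 0.05 fell from 1651 to 57 over all genes in *Dnttip1* KO. In *Elmsan1* KO they fell from 1812 to 64. Values of single list genes from that fit are not given here. Of the 9 genes for readers of methyl-CpG, 0 were higher and 1 was lower in *Dnttip1* KO, where 3.26% of all genes were called higher and 3.25% lower, and 0 were called in *Elmsan1* KO. The called gene, *Uhrf2*, a relative of *Uhrf1* that binds hydroxymethylated DNA, averaged 5.94 FPKM in WT, 3.57 in D2A7, 3.62 in D1E6, 6.51 in E2E8 and 4.09 in E2G7. Its change in *Dnttip1* KO was -0.73 (SE 0.0734, adjusted p = 0.00598). In D2A7 against WT, 1 reader was called higher and 1 lower, where 11.3% and 5.72% of all genes were. In D1E6 1 was called lower, where 6.34% were, in E2E8 1 higher, where 10.7% were, and in E2G7 0. Of 13 tested genes of base excision and demethylation, 1 was called higher in each knockout, *Gadd45b*, a stress-induced gene that has been linked to demethylation. *Gadd45b* averaged 6.72 FPKM in WT, 13.3 in D2A7, 9.91 in D1E6, 14.4 in E2E8 and 11.2 in E2G7, with changes of 0.74 (SE 0.164, adjusted p = 0.0454) in *Dnttip1* KO and 0.89 (SE 0.138, adjusted p = 0.0148) in *Elmsan1* KO. In *Elmsan1* KO 2.74% of all genes were called higher and 3.68% lower. In D2A7 against WT, 2 of these 13 genes were called higher and 2 lower, where 11.3% and 5.72% of all genes were. In E2E8 3 were called higher, where 10.7% were, in E2G7 1, where 3.8% were, and in D1E6 0. Between the *Elmsan1* KO clones 4 of 13 were higher in E2E8, where 10.1% of all genes were.

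With the clones pooled, no gene was called in either knockout among the 13 regulators of DNA methylation, the 14 repression partners of TRIM28 or the 9 tested genes that supply methyl donors and 2-oxoglutarate. At an adjusted p under 0.05 with no minimum fold, 1 of the 13 regulators was lower in *Dnttip1* KO, and 2 were higher and 1 lower in *Elmsan1* KO. Over all genes, 5.19% were higher and 4.28% lower at this threshold in *Dnttip1* KO, and 5.62% and 4.91% in *Elmsan1* KO. For the TRIM28 partners this count was 0 in *Dnttip1* KO and 1 higher in *Elmsan1* KO, and for the supply genes 0 and 1 lower. In single clones against WT, 1 regulator was called lower in D2A7 (*Dppa3*, -0.70), where 5.72% of all genes were. *Cdca7l* was the 1 regulator called higher in D1E6 (0.68, where 5.33% of all genes were) and in E2G7 (0.64, where 3.8% were). In D2A7 1 supply gene was called higher, where 11.3% of all genes were. No TRIM28 partner was called against WT in any clone. Between the *Elmsan1* KO clones, 11 of the 14 TRIM28 partners were lower in E2E8 at an adjusted p under 0.05, where 21.7% of all genes were, with a list median of -0.25 against 0.05 over all genes and with none at 1.5-fold. *Trim28* itself was lower there by -0.44 (SE 0.0302, adjusted p = 3.0e-05).

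Among germline genes that promoter methylation is known to silence, none was called higher with the clones pooled, but some were in single clones. Of 13 tested, 0 were called higher and 2 lower in *Dnttip1* KO, where 3.26% of all genes were called higher and 3.25% lower. In *Elmsan1* KO 0 were higher and 1 lower, where 2.74% were called higher and 3.68% lower. In D2A7, 4 of 13 were higher than WT (*Dazl*, *Mael*, *Stk31* and *Rpl10l*) and 3 lower (*Tex19.1*, *Hormad1* and *Slc25a31*), where 11.3% of all genes were called higher and 5.72% lower. In D1E6, 0 of 12 were higher and 4 lower (*Dazl*, *Rpl10l*, *Tex19.1* and *Slc25a31*), where 5.33% of all genes were called higher and 6.34% lower. In E2E8, 2 of 12 were higher (*Stk31* and *Sycp3*) and 1 lower (*Dazl*), where 10.7% of all genes were called higher and 6.24% lower. In E2G7 0 of 13 were higher and 2 lower (*Dazl* and *Tex19.1*), where 3.8% of all genes were called higher and 6.86% lower. Between the *Dnttip1* KO clones 5 of 13 were higher in D2A7 and 1 lower, where 9.84% of all genes were called higher and 3.93% lower. Between the *Elmsan1* KO clones 4 of 12 were higher in E2E8 and 0 lower, where 10.1% were called higher and 3.12% lower. *Dazl* and *Rpl10l* were called higher than WT in D2A7 and lower in D1E6, and neither was called in the pooled *Dnttip1* KO comparison. *Tex19.1*, a germline and placental gene, averaged 44.8 FPKM in WT, 17.2 in D2A7, 18.3 in D1E6, 43.7 in E2E8 and 20.3 in E2G7, with a change of -1.36 (SE 0.0521, adjusted p = 0.000981) in *Dnttip1* KO. *Dazl*, a germ cell RNA-binding protein gene, averaged 4.60 FPKM in WT, 9.12 in D2A7, 2.96 in D1E6, 3.01 in E2E8 and 2.97 in E2G7, with a change of -0.63 (SE 0.0948, adjusted p = 0.0139) in *Elmsan1* KO. D2A7 alone had more *Dazl* than WT (0.95, adjusted p = 7.8e-05).

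Of 28 listed imprinted genes, 26 were in the table and 23 were tested in *Dnttip1* KO and 22 in *Elmsan1* KO. *Meg3*, *Rian* and *Mirg*, neighbours in 1 imprinted domain, passed the filter on low values through the WT libraries, and *Igf2* passed in *Dnttip1* KO through the KO libraries, so they were left out of the counts. Of the 19 genes that reached the filter in both groups, 5 were called lower and 0 higher in *Dnttip1* KO, where 3.14% of all such genes were called lower. In *Elmsan1* KO 4 of 19 were called lower and 0 higher, where 3.37% were called lower. *Peg10* and *Sgce*, neighbours in 1 imprinted domain, were among the genes called lower in both comparisons. The calls in each count are therefore not all separate loci. The median log2 fold change of these genes was -0.35 against 0.0076 over all such genes in *Dnttip1* KO and -0.42 against -0.0092 in *Elmsan1* KO. *Peg10*, a retrotransposon-derived gene expressed from the paternal allele, averaged 12.1 FPKM in WT, 0.0133 in D2A7, 0.735 in D1E6, 0.471 in E2E8 and 0.677 in E2G7. *Zrsr1* averaged 5.79 FPKM in WT and 3.28 to 3.90 FPKM in the 4 clones, with changes of -0.65 (SE 0.0740, adjusted p = 0.00810) in *Dnttip1* KO and -0.70 (SE 0.109, adjusted p = 0.0148) in *Elmsan1* KO. *Mcts2* averaged 21.9 FPKM in WT, 21.6 in D2A7, 17.8 in D1E6, 14.1 in E2E8 and 15.2 in E2G7, with changes of -0.19 (adjusted p = 0.363) and -0.61 (SE 0.0832, adjusted p = 0.0106). In D2A7, where *Zfp57* was at the WT level, *Mcts2* was near its WT level and *Zrsr1* and *Peg10* were below theirs. Expression of imprinted genes and *Zfp57* was not tested for a relation.

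For *Dnmt3l* and *Dnmt3b*, the members with the widest range, genes with the most similar pattern over the 10 libraries were sought among 12216 genes by the Pearson correlation of log2 values. The 10 libraries are 5 pairs, so these correlations rest on 5 lines and are a description. The closest to *Dnmt3l* were *Cpsf7* (r = 0.975), *Fzd5* (0.972), *Tcf7l1* (0.970), *Zfp36l1* (0.970) and *Fblim1* (0.968). These genes ranged less than *Dnmt3l* itself, *Cpsf7* from 18.4 to 22.8 FPKM and *Tcf7l1*, a repressor of the WNT pathway, from 2.91 to 5.81 FPKM. The closest to *Dnmt3b* were *C77370* (0.993), *Cdc25a* (0.988), *Klf8* (0.988), *Zfp296* (0.987) and *Ino80* (0.987). *Zfp296*, a zinc finger gene of mESCs, ranged from 14.3 to 35.2 FPKM. None of the other 9 members was among the 5 closest genes of either.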

How the data were processed

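RNA-seq of WT mESCs, 2 *Dnttip1* KO clones and 2 *Elmsan1* KO clones, with 2 libraries each, was analysed from the FPKM table that the authors deposited. According to the methods, stranded total RNA libraries were sequenced with paired ends, aligned to NCBIM37 and counted per gene with HT-seq. The authors tested counts after TMM scaling in edgeR 3.16.5 with voom and limma in R 3.3.1. How the FPKM were scaled for length and library size is not given in the sources used here. The FPKM of low genes times the exon length of GENCODE vM1, which holds 97.2% of the identifiers (the methods name vM20), were whole multiples of 1 step per library, within 0.05 steps, for 98.3% to 98.6% of values under 100 steps, which gave the fragments and the depth (31098266 to 86463818 fragments per library). Fragment counts cover counting error only.

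Libraries were scaled by median ratios over 11270 genes (factors 0.965 to 1.01). A gene entered a comparison when 2 or more of its libraries reached 0.1 FPKM. Tests ran on log2(FPKM + 0.1), a scale that understates changes of low genes, with limma 3.58.1 in R 4.3.3, using its moderated test with a variance trend, two-sided, with Benjamini-Hochberg adjustment over all genes tested. Calls required a 1.5-fold change and an unadjusted p under 0.01, as in the study. Knockouts were compared with their own libraries only, and lines in a single fit of all 10 libraries. The fits were tested on simulated data. Alternatives were pseudocounts of 1 and 0.01, no filter, a mean of at least 1 FPKM, quantile normalization, unscaled FPKM, all libraries in 1 fit, only the lines compared, no variance trend, a correlation within lines, a replicate block, chromosomes centred on WT, an adjusted p in the call, each library left out, and, chosen after seeing the data, voom on the recovered fragments. Figures were drawn with matplotlib 3.10.9 in Python 3.11.15.

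The 10 genes and the 7 further lists and 7 marker lists were chosen with earlier results of these data known. Named are the 10 genes, the targeted genes, at most 3 called genes per list and direction (mean at or above 1 FPKM), and the 5 genes most correlated with each of the 2 members of widest range. The primed, trophoblast and neural markers, *Meg3*, *Rian*, *Mirg*, *Igf2*, *Sgce*, *Dppa3*, *Cdca7l*, *Mael*, *Stk31*, *Rpl10l*, *Hormad1*, *Slc25a31*, *Sycp3* and the overlapping gene *Aire* were named after their values were seen.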

Additional observations from a re-analysis of the deposited data

Results flagged for a closer look

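*Zfp57* in *Elmsan1* KO mESCs had a library that stood slightly apart. Clone E2E8 replicate 1 had 44.5 FPKM and the other 3 libraries lay from 46.4 to 46.9 FPKM, so that the gap to the nearest library took 0.829 of the whole range, just past the critical value of 0.829 for 4 samples. It was 1 of 20 groups of 4 libraries examined, and chance alone flags about 1 in 20. The gap is small beside the distance to WT (72.6 and 80.0 FPKM).

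Clones of a knockout, or the knockouts themselves, differed in several members, by limma with the values given above. *Tet2* differed between *Dnttip1* KO and *Elmsan1* KO (log2 difference 1.05). Between the *Dnttip1* KO clones, D2A7 against D1E6, *Dnmt3l* differed by -0.89 and *Tet2* by 0.72. Between the *Elmsan1* KO clones, E2E8 against E2G7, *Dnmt3b* differed by -1.83, *Dnmt3l* by -2.36, *Tet1* by -0.71 and *Tet2* by -0.99. In E2E8 against E2G7 all 4 differences had the same direction, and in the comparison as a whole 3.12% of genes were called lower.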

How the results depend on the processing

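Of 111 counts of members called under another setting, 103 stayed within 1.5 times the reported count, as did 69 of 80 with 1 library left out. The count in *Dnttip1* KO versus WT was 0 with all 10 libraries in 1 fit (*Dnmt3l* unadjusted p = 0.0317) and 0 to 1 with 1 library left out, 0 without WT replicate 1. In *Elmsan1* KO versus WT it was 2 with all 10 libraries in 1 fit and 1 to 2 with 1 left out, *Tet2* being the added gene. Between the knockouts it was 0 without a filter, without the variance trend, with an adjusted p in the call and with the replicate block, and 0 to 2 with 1 library left out, 0 without any one library of D2A7 or E2E8 and 2 without E2G7 replicate 1, when *Dnmt3l* was also called. In D1E6 versus WT it was 2 with quantile normalization (*Zfp57*) and with chromosomes centred on WT (*Tet3*), and 1 to 2 with 1 library left out, in D2A7 versus WT 1 to 2 (1 without WT replicate 2), and in D2A7 versus D1E6 2 to 3. A fit with the replicate block moved no other count of members beyond 1.5 times, and the numbers did not pair the libraries, with correlations of the deviations of same-numbered libraries from -0.194 to 0.337. Values that changed sign were small in the reported fit and not called. With quantile normalization they were *Trim28* in *Dnttip1* KO (-0.032), D2A7 (-0.00201) and E2G7 (-0.041) versus WT, *Tet3* between the knockouts (-0.069), *Dnmt3a* in E2E8 versus E2G7 (-0.21) and versus WT (-0.00236), and *Zfp57* in E2E8 versus E2G7 (0.00434). With chromosomes centred they were *Tet3* (0.39) and *Trim28* (-0.00356) in D2A7 versus D1E6, *Dnmt3a* in E2E8 versus E2G7 (-0.018) and *Trim28* in D1E6 versus WT (0.00356), which was 0.028 with FPKM as deposited. With 1 library left out, the ranges that crossed 0 were -0.031 to 0.052 for *Dnmt3a* in E2E8 versus E2G7, -0.030 to 0.081 for *Dnmt3b* in D1E6 versus WT, -0.24 to 0.57 for *Dnmt3l* and -0.033 to 0.22 for *Tet1* in *Elmsan1* KO versus WT, -0.21 to 0.043 for *Tet2* in *Dnttip1* KO versus WT, -0.26 to 0.029 for *Tet3* in D2A7 versus D1E6 and -0.041 to 0.13 between the knockouts, -0.011 to 0.00285 for *Trim28* in D1E6 versus WT, and -0.087 to 0.024 for *Zfp57* in D2A7 versus WT. The cause of these changes was not tested. Over all genes, the correlation within lines lowered the genes at an adjusted p under 0.05 from 1651, 1812 and 6 to 57, 64 and 0 in the knockout comparisons. It lowered the counts called from 1135, 1106 and 268 to 538, 486 and 54. A pseudocount of 1 lowered the counts called to 540, 525 and 79, and a mean of at least 1 FPKM to 664, 603 and 112. Without WT replicate 1 or 2 they were 599 and 688 in *Dnttip1* KO and 622 and 682 in *Elmsan1* KO, and the count between the knockouts ranged from 105 to 507 with 1 library left out. That count was also 151 without a filter, 171 with the replicate block and 4 with an adjusted p. Voom on the recovered fragments called 1006, 938 and 272 genes, and it added *Tet3* (-0.80) in E2G7 versus WT. In the comparisons of lines, the pseudocount of 1 and the mean of at least 1 FPKM lowered the counts by 1.78 to 2.67 times. The lowest member, *Tet3*, rested on 94 to 205 fragments per library, and the SE of its changes from WT was 0.179 to 0.182 in single clones.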
